A study of Mus musculus with 7 samples.

Results

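The genes of the cytosolic ribosome were examined in regulatory T cells (Tregs) of aged and young mice. They were chosen by symbol from the deposited gene table: names that begin with Rpl or Rps and a digit, Rplp0 to Rplp2 and Rpsa, listed there as protein coding, with the Rps6k kinases left out. This gave 100 of 25469 genes. Of these, 43 encode proteins of the large subunit, 31 of the small subunit and 3 of the stalk, and these 77 are called the ribosomal protein genes here. A further 8 are near copies of them (Rpl3l, Rpl6l, Rpl7l1, Rpl22l1, Rpl36al, Rpl39l, Rps27l and Rps27rt), 14 carry a pseudogene symbol (-ps), and Rps19bp1 encodes a protein that binds a ribosomal protein. GENCODE M21 lists 11 of the -ps genes and Rpl6l as pseudogenes, although the deposited table has them as protein coding. All 77 ribosomal protein genes, 7 near copies, 3 -ps genes and Rps19bp1 passed the filter on low counts, which left 88 genes to test. The other 12 were Rpl3l and 11 -ps genes.

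Splenic CD4+CD25+ cells were isolated with magnetic beads from wild-type mice, 3 aged (18 months) and 4 young (8 weeks by the labels, while the methods give another age for the young mice), with no treatment given in the labels, and their RNA was sequenced after SMART-Seq v4 amplification. The methods describe male C57BL/6 mice. Each library is a biological replicate by its label. The labels do not say whether a library came from 1 animal or from a pool. CD25 is also carried by activated T cells, so the isolation enriches Tregs rather than purifying them.

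A ribosome joins a small subunit, which reads the mRNA, to a large subunit, which forms the peptide bond. One copy of most of its proteins sits in each particle, while the stalk proteins Rplp1 and Rplp2 are held on Rplp0 and recruit the GTPases of translation. The mRNAs of these proteins begin with a run of pyrimidines, the 5′ terminal oligopyrimidine (TOP) tract, through which mTOR and the RNA-binding protein Larp1 set their translation together. Resting T cells hold few ribosomes and make many more once they are activated. Ribosomal protein genes have also left many retrocopies, intronless copies made from their mRNAs, some of which are transcribed.

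The retrocopy Rps27rt was the only one of the 88 genes that passed the test with age, so its sequence is shown first beside that of Rps27, the gene it derives from. Rps27 has 5 exons at chr3:90212522-90213651 on the minus strand, and Rps27rt is a single exon at chr9:114982366-114982739 on the minus strand (GENCODE M21, GRCm38). Both coding sequences have 255 bases and are identical at all 255 of them, so that no base is in capitals below.

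Rps27 and Rps27rt: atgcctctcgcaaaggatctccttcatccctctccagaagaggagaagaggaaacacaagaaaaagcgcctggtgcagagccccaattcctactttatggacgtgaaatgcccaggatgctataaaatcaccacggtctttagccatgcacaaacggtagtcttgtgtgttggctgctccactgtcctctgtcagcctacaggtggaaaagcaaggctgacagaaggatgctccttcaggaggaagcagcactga

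Over the whole transcript of Rps27rt, 341 of 374 bases were identical to Rps27 and 33 were not. Reads from the shared bases cannot be assigned to 1 of these genes by sequence alone.

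Rpl9-ps6 is a second single-exon copy, of Rpl9. Its coding sequence differed from that of Rpl9 at 1 of 579 bases, the substitution G266A, counted from the first base of the start codon. The stretch from base 246 to 286 is shown with that base in capitals.

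Rpl9: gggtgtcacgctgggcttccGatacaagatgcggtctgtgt

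Rpl9-ps6: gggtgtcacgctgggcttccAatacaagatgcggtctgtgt

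Another single-exon copy, Rpl10-ps3, has a coding sequence of 645 bases that was identical to that of Rpl10.

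The start of a ribosomal protein gene carries the pyrimidine tract, and the RefSeq windows (GRCm38.p6) of 30 bases from 10 before to 20 after the start are given for 8 genes described below, with each CTTTC, one form of the tract, in capitals.

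Rps27 (chr3:90213629-90213658, minus strand): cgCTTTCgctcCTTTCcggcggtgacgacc

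Rplp2 (chr7:141447641-141447670, plus strand): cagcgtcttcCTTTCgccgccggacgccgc

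Rplp0 (chr5:115559457-115559486, plus strand): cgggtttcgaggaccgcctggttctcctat

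Rpsa (chr9:120127756-120127785, plus strand): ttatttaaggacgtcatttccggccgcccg

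Rpl41 (chr10:128549149-128549178, minus strand): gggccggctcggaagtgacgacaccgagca

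Rpl15 (chr14:18270967-18270996, minus strand): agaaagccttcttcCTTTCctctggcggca

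Rps6 (chr4:86857348-86857377, minus strand): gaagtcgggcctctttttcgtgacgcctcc

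Rps27rt (chr9:114982720-114982749, minus strand): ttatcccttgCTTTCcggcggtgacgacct

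The windows of Rps6, Rplp0, Rpsa and Rpl41 hold no CTTTC in these 30 bases, and that of Rps27rt continues with the bases that follow CTTTC in Rps27. A window was found for 57 of the 77 ribosomal protein genes. CTTTC on the gene's strand, from 20 bases before to 30 after the start, was present in 21 of these 57 genes (36.8%), against 7.66% of the 27025 genes with a window. CCGGAAG, letters bound by Ets factors such as Gabpa, was found on either strand of the 300-base window in 42.1% of them, against 9.93% of all genes. GGGCGG, the letters of a GC box, was found in 61.4% against 38.2%. For CAAGATGG, letters bound by Yy1, the shares were 5.26% and 2.42%. TATAAA, the letters of a TATA box, was found in 10.5% against 15.7%, and CACGTG, letters bound by Myc, in 10.5% against 8.09%. None of these motifs was required not to overlap another, and a match is a description of letters, not of binding.

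The libraries held 10734234 to 13649310 counts on genes, and 1 count was worth 0.0701 to 0.101 CPM (counts scaled to library size), the unit used for levels below. Foxp3, the factor that defines Tregs, was present in every library at 394 to 622 CPM and did not pass the test (log2 fold change 0.21, SE 0.16, adjusted p = 0.409, edgeR). Cd4 was at 434 to 633 CPM (log2 fold change -0.30, adjusted p = 0.117) and Il2ra, which encodes CD25, at 327 to 684 CPM (log2 fold change -0.61, adjusted p = 0.0588). Il2ra passed as lower with DESeq2 (adjusted p = 0.00672), limma voom (0.0467), limma-trend (0.0495), with aged replicate 1 left out (0.0158) and with low counts kept (0.0411), in a range of 0.00672 to 0.214 over all alternatives, and Cd4 passed with DESeq2 (0.0398, range 0.0398 to 0.418). Of the 10 Treg markers examined, 8 had an unadjusted p under 0.05 (edgeR), against 32.7% of all genes tested. Of the 10, 2 passed, Lrrc32 lower (log2 fold change -1.02, adjusted p = 0.0083) and Cd3e higher (0.46, adjusted p = 0.0301), against 16.7% of all genes tested. The libraries also held markers of other cells. The 8 markers of naive T cells summed to 1471 to 1970 CPM in aged and 2523 to 3095 CPM in young libraries, with 7 of 8 lower in aged, and the 10 markers of effector T cells to 798 to 1028 CPM in aged and 365 to 566 CPM in young libraries, with 7 of 10 higher. The 8 plasma cell markers summed to 3297 to 5333 CPM in aged and 422 to 2548 CPM in young libraries (Igha, Ighg2b and Ighg2c higher), and the 8 neutrophil markers to 667 to 4302 CPM and 227 to 790 CPM (Csf3r, Cxcr2, Retnlg, S100a8 and S100a9 higher). The 8 macrophage markers summed to 396 to 553 CPM in aged and 517 to 605 CPM in young libraries (Adgre1, Csf1r and Vcam1 lower), the 6 CD8 and NK markers to 64.7 to 106 CPM and 82.6 to 130 CPM (Klrb1c and Klrd1 lower), and the 6 platelet markers to 21.1 to 41.6 CPM and 8.62 to 18.0 CPM (Ppbp and Treml1 higher). No marker of these lists was at 0 in all libraries. Mitochondrial genes took 5.08% to 10.7% of the gene counts in aged and 2.63% to 3.23% in young libraries. In such mixtures, fewer cells of a type and less RNA per cell cannot be told apart, and the part of these differences in the results below was not tested. Young replicate 2 stood apart in the ribosomal protein genes, as shown further on. The median of the ribosomal protein genes, that of the whole set tested, and the share of counts are also given without it. So are the log2 fold changes of Rplp0, Rpl36, Rpl15 and Rpl32. Medians of smaller groups of genes are given with it only.

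The first question was whether the ribosomal protein genes differed between aged and young Tregs. None of the 77 passed the test in either direction (edgeR, adjusted p under 0.05), and of all 88 genes only Rps27rt did. Among all 13904 genes tested, 16.7% passed, 9.8% higher and 6.94% lower in aged Tregs. Before adjustment, 4 of the 77 had a p under 0.05, all lower in aged Tregs, among them Rpl36, Rplp0 and Rpl15, and 8 of the 88 did, against 32.7% of all genes. The other 4 were Rpl7l1, lower, and Rps27rt, Rpl9-ps6 and Rpl10-ps3, higher. By DESeq2, the same 4 ribosomal protein genes were lower (16.9% of all genes with an adjusted p passed), and limma voom gave 1 lower (16.4% of all genes). With limma-trend none of the 77 passed. The log2 fold changes of the 77 genes ran from -0.41 to 0.55 with a median of -0.09, beside a median of 0.02 over all genes tested, and 52 of the 77 were below 0. Without young replicate 2, the median of the 77 genes was 0.03 and none passed. Genes of like abundance had a similar median: over the 2055 genes with a mean of 100 CPM or more it was -0.10, and 17.5% of these passed the test.

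The data bound the size of a change. The 95% interval of the log2 fold change lay within ±1 for 76 of the 77 genes, and within ±0.5 for 38 of them. The exception was Rpl24, with 0.711 to 2.43 CPM. The median standard error was 0.16, near the 0.17 of all genes and above the 0.12 of the 2055 genes with a mean of 100 CPM or more. In the large subunit, 30 of 43 genes had a log2 fold change below 0 (median -0.12). In the small subunit it was 20 of 31 (median -0.07), and in the stalk 2 of 3 (median -0.15). These counts and medians include young replicate 2, without which the median of all 77 genes was 0.03.

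**Figure D1:**
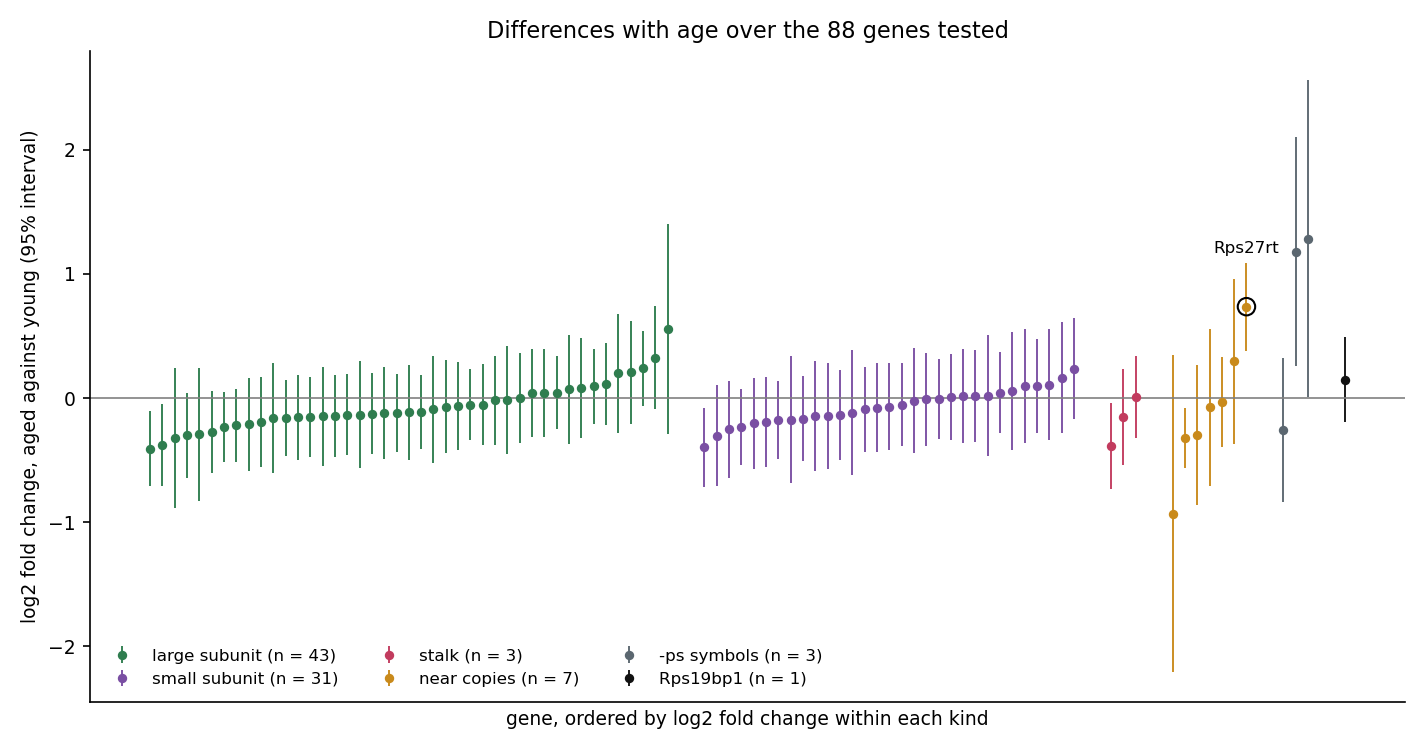
Log2 fold change of aged against young Tregs for the 88 genes tested, with 95% intervals from edgeR, ordered within each kind of gene. The 77 ribosomal protein genes (green, purple and red) lie between -0.41 and 0.55 and none passed the test, while the circled Rps27rt, at 0.74, was the one gene that did.

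Levels did not separate the ages in most genes. The 3 aged libraries lay below all 4 young ones in 9 of the 77 ribosomal protein genes (among them Rpl4, Rpl15, Rpl28, Rpl29, Rpl32, Rpl36, Rplp0 and Rps10) and above them in none. Of all genes tested, 29.9% did not overlap, 14.4% with aged below and 15.5% with aged above.

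Genes with a small p among the 77 are described next, chosen after their values were seen except for Rplp0. Rplp0 is the base of the stalk. It was at 2145, 2365 and 2215 CPM in the aged and 2651, 3517, 2780 and 2788 CPM in the young libraries. All 3 aged libraries were below the young ones, and young replicate 2 was the highest of the 7. The log2 fold change was -0.39 (SE 0.15, 95% interval -0.73 to -0.04, adjusted p = 0.115, edgeR), and -0.29 without young replicate 2.

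Rpl36, a small protein of the large subunit, was at 320, 293 and 290 CPM in aged and 339, 475, 376 and 407 CPM in young libraries. The difference between the nearest libraries, aged replicate 1 and young replicate 1, was small. The log2 fold change was -0.41 (SE 0.13, 95% interval -0.71 to -0.10, adjusted p = 0.0694), and -0.31 without young replicate 2. Rpl15, a protein of the large subunit, was at 527, 493 and 476 CPM in aged and 585, 805, 609 and 592 CPM in young libraries. Its aged libraries were all lower, and the log2 fold change was -0.38 (SE 0.14, 95% interval -0.71 to -0.05, adjusted p = 0.107), and -0.26 without young replicate 2. These 3 genes passed the test with DESeq2 (adjusted p = 0.0126 to 0.0334) and after trends in GC content and length were removed (adjusted p = 0.00734 to 0.0428), where Rpl32 also passed and 18.1% of all genes did. Rpl32, also of the large subunit, was at 948, 914 and 971 CPM in aged and 989, 1434, 1165 and 1067 CPM in young libraries, with all aged libraries lower (log2 fold change -0.30, SE 0.15, adjusted p = 0.206, edgeR), and it was at -0.18 when young replicate 2 was left out (adjusted p = 0.324).

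**Figure D2:**
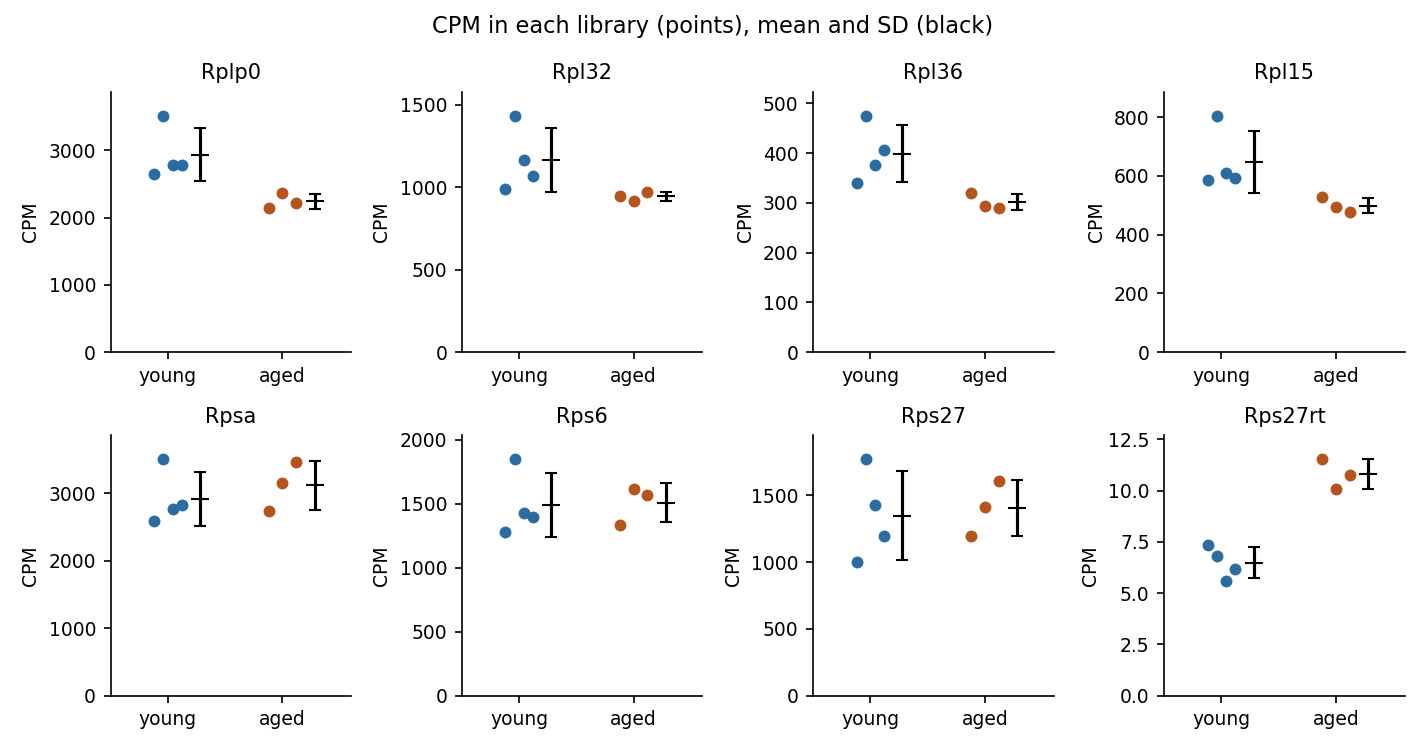
CPM of 8 genes in each library (points), with the mean and SD of the 4 young and 3 aged libraries in black. The aged points lie below all young points for Rplp0, Rpl32, Rpl36 and Rpl15, overlap them for Rpsa, Rps6 and Rps27, and lie above them for Rps27rt at 10.1 to 11.5 against 5.61 to 7.34 CPM.

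For Rplp1 and Rplp2, the other stalk proteins, the ages overlapped. Rplp1 was at 1298, 1396 and 1563 CPM in aged and 1212, 1640, 1396 and 1398 CPM in young libraries, a log2 fold change of 0.01 (SE 0.15, adjusted p = 0.979). Rplp2 was at 516, 665 and 789 CPM in aged and 632, 831, 695 and 763 CPM in young libraries, a log2 fold change of -0.15 (SE 0.17, adjusted p = 0.578). The difference between these genes and Rplp0 was not tested.

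Rpsa is a small subunit protein that also serves as a laminin receptor, and it had the highest mean level of the 77. It was at 2742, 3150 and 3472 CPM in aged and 2584, 3509, 2763 and 2822 CPM in young libraries. The ages overlapped (log2 fold change 0.10, SE 0.16, adjusted p = 0.73). Rps6, the small subunit protein phosphorylated downstream of mTOR, was at 1334, 1616 and 1573 CPM in aged and 1280, 1850, 1426 and 1400 CPM in young libraries. It did not pass the test either (log2 fold change 0.02, 95% interval -0.35 to 0.39, adjusted p = 0.955).

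Several ribosomal protein genes cause Diamond-Blackfan anaemia, a failure of red cell production, when 1 copy is lost. Of these, 10 were examined, among them Rps10, Rps19, Rps24, Rpl5, Rpl11 and Rpl35a. None passed the test (edgeR, DESeq2 and limma voom) and none had an unadjusted p under 0.05. Their log2 fold changes ran from -0.29 (Rpl35a) to 0.10 (Rps24), 9 of 10 below 0, with a median of -0.16. This median includes young replicate 2, without which the median of all 77 ribosomal protein genes was 0.03. Of the 10, Rpl11, Rpl26, Rps19 and Rps24 changed sign in some alternatives. Rps19, the gene most often mutated in the disease, was at 1047, 1134 and 1157 CPM in aged and 1012, 1457, 1097 and 1104 CPM in young libraries (log2 fold change -0.07, adjusted p = 0.797). Rps10 was the only one of the 10 whose ages did not overlap, with 700, 725 and 726 CPM in aged and 761, 1017, 775 and 819 CPM in young libraries (log2 fold change -0.23, adjusted p = 0.269). Rpl5 and Rpl11, which enter the ribosome with its smallest rRNA and, when free, bind Mdm2 and so raise p53, had log2 fold changes of -0.16 and -0.06. Rpl23, another Mdm2 binder, was at -0.01 (95% interval -0.45 to 0.42).

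The ribosomal protein genes of a library tended to lie on the same side of their means. For each gene, the deviation of its log2 CPM from its mean over the 7 libraries was taken. The median deviation of the 77 genes was -0.16, -0.03 and 0.10 in the aged and -0.18, 0.34, 0.01 and -0.05 in the young libraries. Young replicate 2 stood apart: it was the highest library for 69 of the 77 genes, and aged replicate 3 was the highest for the other 8. Young replicate 1 was the lowest library for 34 genes and aged replicate 1 for 30.

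**Figure D3:**
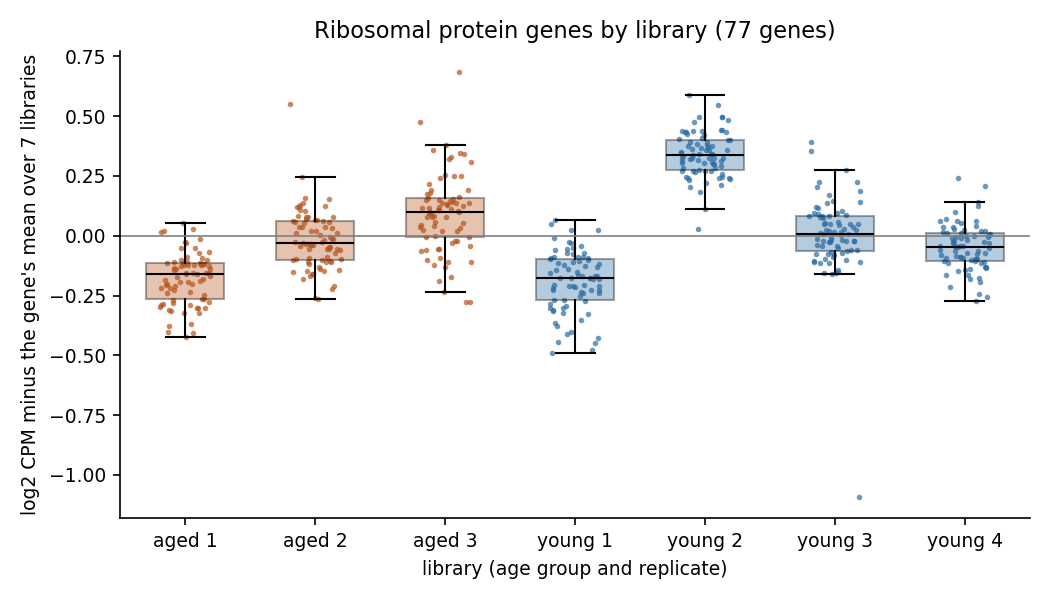
Log2 CPM of each of the 77 ribosomal protein genes minus its mean over the 7 libraries (points), with boxes for the quartiles, the median line and whiskers to the last point within 1.5 box lengths. The median of young replicate 2, 0.34, is above those of the other libraries, and the medians of the aged libraries, from -0.16 to 0.10, lie within those of the young ones. The lowest point is Rpl24.

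The same pattern was seen in the share of the library that the 100 genes took. It was 8.07%, 7.67% and 9.31% of the gene counts in aged and 7.32%, 11.6%, 9.26% and 8.83% in young libraries, or 8.35% ± 0.85 (SD, n = 3) and 9.25% ± 1.76 (SD, n = 4). Without young replicate 2 the young mean was 8.47%. The widest 95% binomial interval (Wilson) of a library's share spanned 0.0348 percentage points, so that counting error was far below the spread between libraries. With mitochondrial, immunoglobulin and haemoglobin genes left out of the total, the means were 10.03% ± 0.88 and 10.3% ± 1.69. The counts of small subunit genes over those of large subunit genes were 0.893, 0.965 and 0.983 in aged and 0.907, 0.926, 0.927 and 0.908 in young libraries, which overlapped.

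Other measures also differed in young replicate 2. Its erythroid markers summed to 12620 CPM, beside 62940 to 119900 CPM in the other young libraries and 13220 to 161000 CPM in the aged ones. Immunoglobulin genes took 3.11% of its gene counts, the highest of the 7. Reads counted for no gene, those on more than 1 gene included, were 13.1% of its total, the lowest. Whether these differences bear on its ribosomal protein genes was not tested. Without this library, 87 genes of the set passed the filter with a median log2 fold change of 0.03, and Rps27rt remained the only gene that passed.

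To ask whether the make-up of the ribosomal protein mRNAs differed with age, each gene was also set against the sum of the 100 genes in its library. On this scale the median over all genes tested was 0.07. None of the 88 genes passed the test (edgeR, 8.95% of all genes did), and 5 of the 77 ribosomal protein genes had an unadjusted p under 0.05 (among them Rplp0, Rpl36a, Rpl41 and Rps14). The other tools were not run on this scale. The groups did not overlap for 17 of the 77 genes, 11 with aged above and 6 with aged below, which is 22.1% beside 21.3% of all genes tested. The genes named next were chosen after their values were seen. Rplp0 took 2.76%, 2.72% and 2.37% of the summed counts in aged and 3.42%, 3.18%, 3.16% and 3.29% in young libraries. Rps14, a small subunit protein of the mRNA platform, took 1.84%, 1.86% and 2.01% in aged and 1.58%, 1.61%, 1.51% and 1.44% in young libraries. The aged libraries were all lower for the first and all higher for the second, with adjusted p of 0.171 and 0.190. Rpl41, the smallest ribosomal protein, took 1.49%, 1.47% and 1.46% in aged and 1.31%, 1.12%, 1.17% and 1.18% in young libraries (adjusted p = 0.206).

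Some ribosomal proteins have a second gene whose product can take their place in the particle, and most of these near copies are more restricted in tissue. Levels of 2 genes were compared per kilobase of exon, as the log2 ratio of the copy to its main gene. Rpl36al was at -1.75 ± 0.09 against Rpl36a in aged and -1.40 ± 0.12 in young libraries (SD, n = 3 and 4). All aged libraries were below all young ones, from -1.85 to -1.69 against -1.56 to -1.26, a pattern singled out after the values were seen. Neither gene passed the test on its own: Rpl36al had a log2 fold change of -0.03 (adjusted p = 0.912) and Rpl36a of 0.33 (SE 0.18, adjusted p = 0.253).

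Rpl22l1, which can replace Rpl22 and is known for its part in T cell development, was at -2.21 ± 0.19 against Rpl22 in aged and -1.82 ± 0.23 in young libraries. It was at 57.9, 57.1 and 80.9 CPM in aged and 54.1, 113, 86.2 and 67.8 CPM in young libraries, and the ages overlapped (log2 fold change -0.30, SE 0.25, adjusted p = 0.443). Rpl22 had a log2 fold change of 0.11 (adjusted p = 0.634). Rpl7l1, a nucleolar relative of Rpl7, was at -5.07 ± 0.20 in aged and -4.89 ± 0.12 in young libraries, with a log2 fold change of -0.32 for Rpl7l1 itself (SE 0.11, adjusted p = 0.0731) and -0.15 for Rpl7 (adjusted p = 0.598). Rps27l, a p53 target, was at -5.23 ± 0.54 and -5.11 ± 0.28 against Rps27 (log2 fold change of Rps27l -0.08, adjusted p = 0.882). Rpl39l, a germ cell form of Rpl39, was the lowest, at -9.63 ± 0.95 and -8.74 ± 0.82, with at most 1.15 CPM in any library. Rpl3l, the form of striated muscle, had 0 to 4 counts in a library and was not tested. Rpl3, its main gene, was at 1848 to 2435 CPM with a log2 fold change of -0.05 (95% interval -0.38 to 0.27). The ratios depend on the length used, since the copies differ in how much untranslated sequence the annotation gives them.

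**Figure D4:**
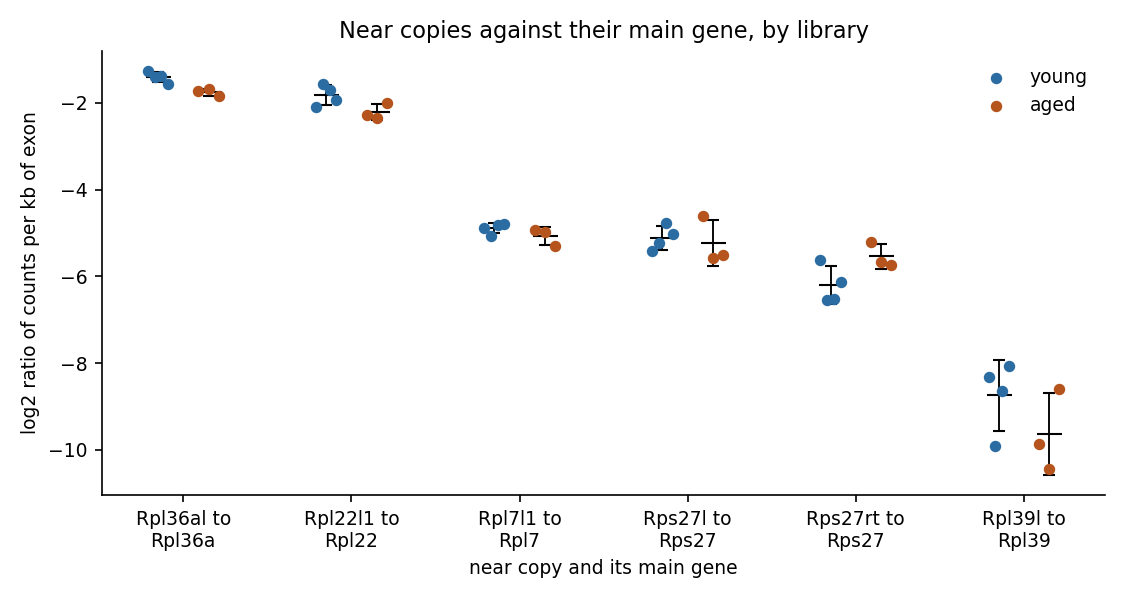
Log2 ratio of counts per kilobase of exon between a near copy and its main gene in each library (points), with mean and SD by age in black. The 6 copies lie below their main gene in every library, with means from -1.55 for Rpl36al to -9.12 for Rpl39l, and the ages do not overlap for Rpl36al alone.

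Rps27rt was the one gene of the set that rose. It had 132, 100 and 115 counts in aged and 84, 97, 71 and 86 counts in young libraries, which is 11.5, 10.1 and 10.8 CPM against 7.34, 6.80, 5.61 and 6.16 CPM. Every aged library was above every young one. The change was 1.67-fold (95% interval 1.30 to 2.13), a log2 fold change of 0.74 (SE 0.16, adjusted p = 0.0163, edgeR). Rps27, with which it shares its coding sequence, was at 1194, 1417 and 1607 CPM in aged and 1005, 1772, 1427 and 1193 CPM in young libraries and did not pass the test (log2 fold change 0.06, SE 0.21, adjusted p = 0.877). Rps27rt thus held a small part of what Rps27 did, 1.66% per kilobase of exon and 0.594% per kilobase of coding sequence. The call was lost without young replicate 4 (log2 fold change 0.71, adjusted p = 0.0541), on the scale of the summed genes (0.80, adjusted p = 0.0524), with the replicate number as a block (0.72, adjusted p = 0.126) and after trends in GC content and length were removed (0.48, adjusted p = 0.0822). In every library, 0 reads were marked as aligned to more than 1 place. How reads that match both genes were placed, or whether they were removed before counting, is not given in the sources used here.

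Other retrocopies also had few counts. Rpl9-ps6 was at 6.82, 6.34 and 8.33 CPM in aged and 6.12, 2.38, 1.66 and 2.58 CPM in young libraries. Young replicate 1 was close to the aged libraries and the other 3 were below 3 CPM. Its log2 fold change was 1.18 (SE 0.40, adjusted p = 0.0806), and it passed with DESeq2 (adjusted p = 0.0309), with limma voom (0.0358) and without young replicate 1 (0.0109). Rpl9 itself was at -0.12 (adjusted p = 0.653). Rpl10-ps3 had 18, 21 and 20 counts in aged and 16, 16, 4 and 3 in young libraries (log2 fold change 1.28, SE 0.56, adjusted p = 0.151), and Rpl10 was at -0.13 (adjusted p = 0.564). Of the transcript bases, 691 of 714 in Rpl9-ps6 and 740 of 768 in Rpl10-ps3 are identical to the main gene, so the counts of both are uncertain for the same reason as those of Rps27rt.

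Outside the set, the deposited table lists 162 further genes whose symbol joins the name of one of these genes to -ps. Of the 52 tested, 4 were higher in aged Tregs (Rpl35a-ps2, Rpl36a-ps1, Rpl36a-ps2 and Rps16-ps2, by 0.79 to 1.16 on the log2 scale, adjusted p = 0.0254 to 0.049) and none lower (edgeR). That is 7.69% beside 9.8% higher and 6.94% lower over all genes tested. At an unadjusted p under 0.05, 16 of the 52 were higher and none lower. Of all genes tested, 32.7% reached that p, 2443 higher and 2097 lower. The median log2 fold change of the 52 was 0.23, and 38 of them were above 0. Scaled for depth, the 162 summed to 232 to 265 CPM in aged and 172 to 237 CPM in young libraries, which overlapped through young replicate 2. As a percentage of the counts of the 100 genes, which were highest in that library, they came to 0.273% to 0.299% in aged and 0.196% to 0.267% in young libraries, which did not overlap. Reads counted for no gene, those on more than 1 gene included, were 18.2% to 20.9% of the total in aged and 13.1% to 20.4% in young libraries. Their part in the pseudogene counts was not tested.

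Rps4l moved the other way. It is a retrocopy of Rps4x that GENCODE M21 lists as a transcribed pseudogene, at chr6:148354656-148355598, and the table does not list it as protein coding. Its bases were not compared with those of Rps4x, so whether its counts share the uncertainty of the retrocopies above was not tested. Rps4l had 11, 11 and 6 counts in aged and 52, 70, 58 and 55 counts in young libraries. The level fell from 4.49 ± 0.40 CPM (SD, n = 4) to 0.877 ± 0.283 CPM (n = 3), a log2 fold change of -2.35 (SE 0.28, adjusted p = 0.00162). Rps4x was at 1963, 2352 and 2553 CPM in aged and 2019, 2747, 2142 and 2143 CPM in young libraries and had a log2 fold change of 0.02 (95% interval -0.36 to 0.40, adjusted p = 0.959).

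Per kilobase of exon the most abundant of the tested genes were Rplp1 with a mean of 2835 CPM, Rps3a1 with 2191 and Rps15 with 1972. Their log2 fold changes were 0.01, 0.16 and -0.08. The mean level of the 77 ribosomal protein genes had a median of 1123 CPM, and 76 of them were above 171 CPM. The least abundant per kilobase were Rpl39l with 0.803 CPM, Rpl24 with 1.57 and Rpl10-ps3 with 1.601. Rpl24, a large subunit protein at the bridge between the subunits, is in GENCODE M21 overlapped by exons of another gene over 47.0% of its exon bases, and reads on both genes are counted for neither. It was at 0.711 to 2.43 CPM. Rpl35 and Rpl23a, overlapped over 66.2% and 62.3%, were at 152 to 204 and 162 to 240 CPM. The part of the overlap in these levels was not tested.

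Fau encodes a ribosomal protein fused to a ubiquitin-like domain and falls outside the symbol rule. It was at 660, 878 and 860 CPM in aged and 720, 924, 720 and 746 CPM in young libraries and did not pass the test (log2 fold change 0.04, adjusted p = 0.889).

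Genes that build, regulate and work with the ribosome were set beside it. Of 87 biogenesis factors tested, 4 rose and 3 fell, which is 8.05% beside 16.7% of all genes (median log2 fold change -0.08). Nol10, of the small subunit processome, rose by 0.95 (SE 0.13, adjusted p = 0.00258), from 33.0 ± 3.3 to 63.9 ± 9.1 CPM (SD, n = 4 and 3). Sbds, which releases the large subunit for its first round of translation, rose by 0.60 (adjusted p = 0.0134), Tsr2, a chaperone of Rps26, by 0.58 (0.0254) and Tsr3, an rRNA-modifying enzyme, by 0.54 (0.0375). Dkc1, the pseudouridine synthase, fell by 0.63 (adjusted p = 0.0221), Tcof1, which aids rRNA transcription, by 0.54 (0.0297) and Nol9, an RNA kinase of rRNA processing, by 0.53 (0.0162).

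Of 20 RNA polymerase I genes, 2 fell (10%, beside 16.7% of all genes tested): Polr1a, the largest subunit, by 0.41 (adjusted p = 0.0173) and Cd3eap by 0.55 (0.0434). Of 28 regulators of ribosomal protein genes and mRNAs, 5 fell and 1 rose, which is 21.4% beside the same 16.7%. Over all genes tested, 6.94% were lower and 9.8% higher. Myc, which drives ribosome production on activation, fell from 136 ± 14 to 83.0 ± 17.9 CPM (log2 fold change -0.71, SE 0.16, adjusted p = 0.0189). Eif4ebp2, a translation repressor that mTOR inactivates, fell by 0.64 (adjusted p = 0.0158), and Pdcd4, an inhibitor of the helicase Eif4a, by 0.65 (0.0318). Larp4, which protects mRNA tails, fell by 0.42 (0.0389) and the transcription factor Yy1 by 0.34 (0.0288). Zfp692, a zinc finger protein, rose by 0.62 (0.0197).

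Among 41 initiation factors 3 fell: Eif2b5, of the exchange factor for initiation, by 0.32 (adjusted p = 0.0247), Eif3l by 0.37 (0.0283) and Eif4g3 by 0.42 (0.0295), which is 7.32% beside 16.7% of all genes. DESeq2 gave 8 lower and 1 higher of the 41, 22% beside 16.9% of all genes, and limma voom 3 lower and 1 higher. Of 13 elongation and release factors Abce1, which splits ribosomes for reuse, fell by 0.45 (adjusted p = 0.0207), and DESeq2 gave 3 lower of the 13 (23.1%). One of 19 nascent chain genes rose, Naa10, an N-terminal acetyltransferase, by 0.63 (0.0399). Of 15 genes of ribosome quality control none passed, with 4 lower at an unadjusted p under 0.05 (Eif2ak3, Eif2ak4, Gcn1l1 and Ltn1), of which DESeq2 called the last 2. Of all genes tested, 32.7% had an unadjusted p under 0.05 (edgeR). Of 7 non-coding genes whose transcripts also begin with a TOP tract, the snoRNA host Snhg5 rose by 0.85 (adjusted p = 0.018). The ribosomal protein genes of mitochondria, which form a separate ribosome, had 3 higher (Mrpl1, Mrpl33 and Mrpl47) and 1 lower (Mrpl34) of 76 (5.26%), with a median log2 fold change of -0.03.

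**Figure D5:**
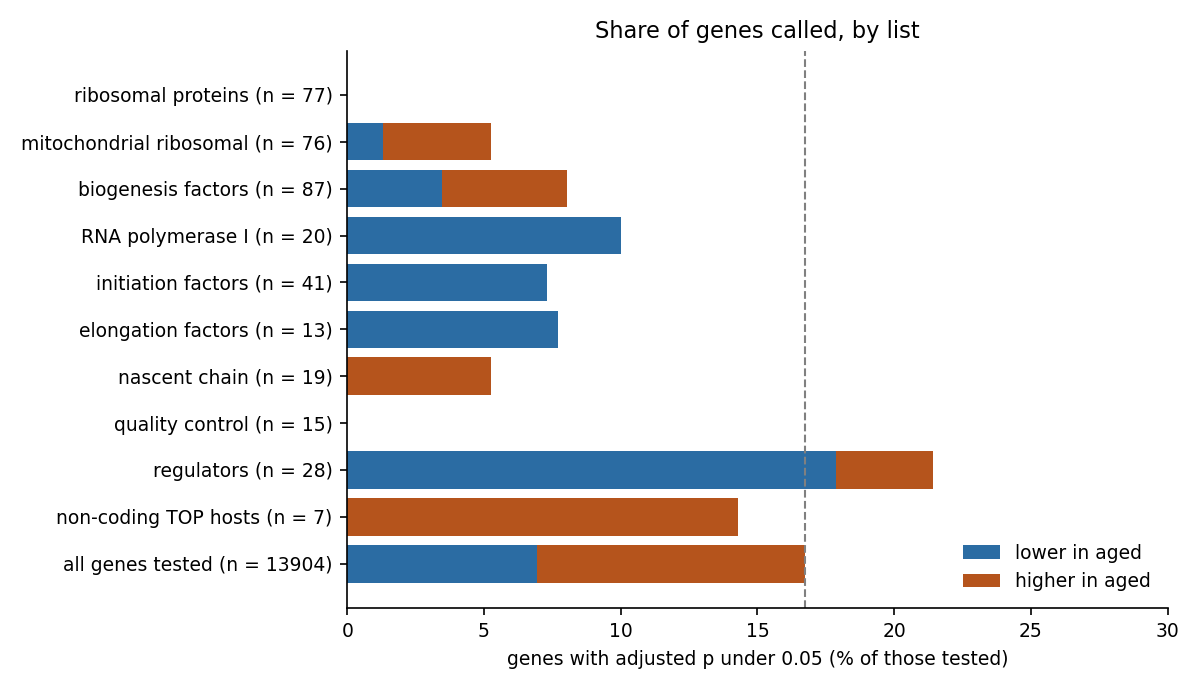
Share of the tested genes of each list with an adjusted p under 0.05 (edgeR), lower (blue) and higher (orange) in aged Tregs, with the dashed line at the 16.7% of all genes tested. The bar of the 77 ribosomal proteins is empty, and 21.4% of the regulators passed.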

How the data were processed

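RNA of 3 aged and 4 young libraries was analysed. The authors deposited raw counts per Ensembl gene for each library, in the layout of HTSeq-count in union mode without strand, in which reads that fall on more than 1 gene, of either strand, are counted for none. The submitters' processing notes name the build mm10, and the aligner is not given in the sources used here. Reads counted for no gene, 13.1% to 20.9%, were left out, among them reads on more than 1 gene (4.787% to 9.555%). A second deposited table gave symbols and gene types. Its signal, which the authors made by dividing counts by 1 size factor per library, was checked and not used, and neither were its columns of the authors' comparison (mean, log2 fold change, its error, statistic, p-values). All per-sample columns were mapped.

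The test was the quasi-likelihood test of edgeR 4.0.16 (R 4.3.3) on counts with TMM factors and the filterByExpr filter by group, with Benjamini-Hochberg adjustment over all 13904 genes and calls under 0.05. The procedure was tested on simulated data. The p-values weigh the difference between ages against the variation between libraries of the same age, whether these are single animals or pools. Intervals cover counting error only where they concern shares. Alternatives were DESeq2 1.42.0, limma 3.58.1, other scalings and filters, a replicate block, GC content and length trends, and leaving out each library. The study names limma, which was run as an alternative because the values are counts. Annotation was GENCODE M21, in which all 100 genes matched, and sequences were compared with Biopython.

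Named genes were the near copies and their main genes, the stalk and Rpsa, the Diamond-Blackfan genes, Rps6, Rpl23, up to 5 called genes in each direction, the 3 highest and 3 lowest per kilobase, Fau, Foxp3, Cd4 and Il2ra. Some genes of the set and of the lists are not reported here. Others were chosen after their values were seen, except called genes of the lists. The genes, lists and tests were chosen with earlier results of these data known.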

Additional observations from a re-analysis of the deposited data

Results flagged for a closer look

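In the 4 young libraries, each of 56 measures (the named genes' CPM and 3 summaries over the ribosomal protein genes) was examined for a library far from the others, and 6 were flagged because the gap to the nearest library was over Dixon's critical share of the group's range for 4 samples. Chance alone flags about 1 in 20 groups, and genes that move together are not independent. The groups of 3 aged libraries were not examined. All 6 flags fell on young replicate 2, as its highest value. Rplp0 was at 3517 CPM there, beside 2651 to 2788 CPM in the other young libraries. Rps4x was at 2747 CPM beside 2019 to 2143 CPM. Rpl41 was at 1241 CPM beside 1003 to 1028 CPM. Fau was at 924.4 CPM beside 719.8 to 745.9 CPM, Rpl28 at 877.5 CPM beside 726.4 to 746.6 CPM, and Rpl15 at 804.6 CPM beside 585.1 to 608.7 CPM.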

How the results depend on the processing

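The main count was 1 gene higher and 0 lower in aged Tregs. The count higher was 2 with DESeq2, 2 with limma voom, and 0 on the summed scale, after GC content and length trends were removed and with the replicate block; it ran from 0 to 2 as each library was left out. The count lower was 4 with DESeq2, 1 with limma voom and 5 after GC content and length trends were removed, and 0 whichever library was left out. Over all genes, 2327 calls became 1244 on the summed scale, and 1237 to 3058 as each library was left out. The causes were not tested.

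With the replicate number as a block, 292 genes were called in place of 2327, and the median log2 fold change of the 88 genes was -0.10. Over all genes tested, the deviations of same-numbered libraries from their group means had correlations of -0.0915, -0.292 and -0.138, none of them positive. Deviations within a group are not independent, so whether the numbers pair the animals cannot be decided from these values.

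The median log2 fold change of the 88 genes, -0.08, ran from -0.15 to 0.03 as each library was left out, over the 87 to 91 genes that then passed the filter, and was -0.16 with library size only. The share of the gene counts in aged libraries was 10.03% without mitochondrial, immunoglobulin and haemoglobin genes in the total, and 7.872% to 8.689% with a library left out. In young libraries it was 8.471% to 9.89%. With coding length in place of exon length, chosen after seeing the data, the mean log2 ratio to the main gene was -2.47 for Rpl22l1, -1.843 for Rpl36al, -4.41 for Rpl7l1, -5.835 for Rps27l and -7.395 for Rps27rt. Coding lengths from RefSeq proteins were not run. DESeq2 called 3 elongation factors, 9 initiation factors, 2 quality control genes and 2 non-coding TOP genes. Of 49 named genes not called, 41 were called in none of the alternatives that tested them, 15 for Rpl39l and 19 or 20 for the others, and 14 of the 52 named genes changed sign in at least 1 alternative, none of them while called. Depth limited Rpl24, Rpl39l and the -ps genes, which had few counts.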
